A study of Mus musculus with 8 samples.

Results

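Myh10 and its partners in nonmuscle myosin II were followed in mouse leukaemias that had lost p53 either with or without a stretch of chromosome 11. The 6 genes are the heavy chains Myh10 (myosin IIB) and Myh9 (myosin IIA), the essential light chain Myl6 and the regulatory light chains Myl9, Myl12a and Myl12b, taken by symbol from 18860 gene rows. Each of the 6 had 1 row and passed the filter on low values. Myh10 was selected on its genotype difference, since of the genes in the lost stretch it did not fall with its neighbours, and that difference is described here and not tested; the other 5 were chosen by family. The tested genotype, called 11B3-deleted, was 11B3fl/p53fl;shNf1;shMll3;Vav1-Cre (n = 4 libraries): 1 chromosome 11 carries the floxed 11B3 interval, which includes Trp53, and the other the floxed p53 allele. The comparison genotype, called p53-loss-only, was p53fl/fl;shNf1;shMll3;Vav1-Cre (n = 4 libraries), in which the rest of the interval stays on both chromosomes. Both are on the C57BL/6 strain, both carry short hairpin RNAs against Nf1 and Mll3, and in both Cre under the Vav1 promoter, which is active in blood cells, acts on the floxed alleles. Total RNA came from leukaemic cells, labelled acute myeloid, of the bone marrow of moribund mice. Per the labels there were lines in each cohort, with no word on whether they trace to different animals, and p-values here cover the spread between libraries.

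Nonmuscle myosin II is the motor that pulls on actin filaments in cells outside muscle. Its heavy chains pair through a long coiled tail, and each holds an essential and a regulatory light chain; phosphorylation of the regulatory chain by its kinases, among them the myosin light chain kinases, switches the motor on. It drives the closing of the cleavage furrow, the stiffness of the cell cortex and the migration of leucocytes. Myosin IIA is the common form in blood cells, and mutations of human MYH9 cause a platelet disorder. Myosin IIB has been studied in human erythroblasts, where it acts in the loss of the nucleus, and in human megakaryocytes, where its gene is switched off as the cells become polyploid. Gata1 is the master transcription factor of the erythroid and megakaryocyte lineages, and Car1 encodes carbonic anhydrase 1, an abundant enzyme of young red cells.

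The promoter windows of the heavy chains are shown because these paralogues had unlike patterns across the libraries. They are RefSeq windows on build GRCm38.p6, not the mm9 of the submitters' notes, running 5′ to 3′ along the gene from 250 bases before its start to 50 after it; all 6 genes matched, with 7 windows. Capitals mark any match, on either strand, to the GATA motif (the word GATAA or GATAG after an A or a T), to the CACC motif (CCNCNCCC) or to the CCAAT box. The Myh10 window is chr11:68691665-68691964 on the plus strand and the Myh9 window is chr15:77842126-77842425 on the minus strand.
Myh10: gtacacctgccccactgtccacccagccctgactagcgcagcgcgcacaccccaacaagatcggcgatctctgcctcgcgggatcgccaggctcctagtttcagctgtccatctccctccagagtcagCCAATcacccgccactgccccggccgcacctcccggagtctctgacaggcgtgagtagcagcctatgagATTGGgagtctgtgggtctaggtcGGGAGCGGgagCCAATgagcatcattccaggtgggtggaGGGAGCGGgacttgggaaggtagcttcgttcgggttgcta
Myh9: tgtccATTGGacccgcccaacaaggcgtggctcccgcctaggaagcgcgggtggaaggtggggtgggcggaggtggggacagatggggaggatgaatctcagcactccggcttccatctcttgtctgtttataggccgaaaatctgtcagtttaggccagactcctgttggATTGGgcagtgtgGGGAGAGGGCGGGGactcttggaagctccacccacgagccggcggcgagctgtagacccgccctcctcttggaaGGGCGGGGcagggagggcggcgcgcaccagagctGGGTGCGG
The Myh10 window held 2 CACC matches, 3 CCAAT matches and no GATA match, and the Myh9 window held 4, 2 and none. Of all 32851 windows of this length, 49.5% held the CACC motif, 37.4% the CCAAT box and 29.8% the GATA motif. These are letters in a short window, and a match is not a binding site.

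The coding sequences show how far reads of 1 gene could be taken for another. Along their aligned coding sequences Myh10 and Myh9 are 72.9% identical, and they share 1 stretch of 50 bases or more, the 122 bases that follow, from coding base 1513 to 1634 of the Myh10 transcript and from 1381 to 1502 of the Myh9 transcript (GENCODE M21).
Myh10 and Myh9: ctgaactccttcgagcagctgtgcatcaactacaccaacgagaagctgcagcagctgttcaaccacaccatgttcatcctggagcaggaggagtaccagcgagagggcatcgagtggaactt
Only 0.689% of the distinct 50-base words of Myh10 transcripts occur in transcripts of another gene. The regulatory light chains are far closer. Their first 60 coding bases are shown with every base that differs from Myl12b in capitals.
Myl12b: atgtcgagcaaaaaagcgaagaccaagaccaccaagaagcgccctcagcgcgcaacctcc
Myl12a: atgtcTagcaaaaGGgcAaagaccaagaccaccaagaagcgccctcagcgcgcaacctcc
Myl9: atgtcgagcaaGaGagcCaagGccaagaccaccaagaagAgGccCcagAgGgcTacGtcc
Within those bases Myl12a differs from Myl12b at 4 positions and Myl9 at 11. Over the whole coding sequence Myl12a and Myl12b are 96.5% identical, and 16.4% of Myl12a words and 25.4% of Myl12b words occur in another gene's transcripts. Most of these lie in a second annotated gene named Myl12b, which overlaps both genes on the same strand and has no row. It holds 551 of the 559 shared Myl12a words and all 691 shared Myl12b words. Between them, the Myl12a and Myl12b rows share 192 words, of 3401 and 2716. Myl9 shares no such word with any other gene, and Myl6 shares 8.38% of its words, mainly with predicted copies. How the counting treated reads shared between copies is not stated, so the split between Myl12a and Myl12b is uncertain. The annotated Myl12a gene also overlaps Myom1, a muscle gene on the opposite strand, and whether counting used strand is not stated. Myh10 overlaps no other annotated gene.

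Libraries are numbered by replicate. Values below are deposited values, that is, reads divided by a library size factor with 1 added, and reads recovered from them numbered 30591456 to 35719495 in 11B3-deleted libraries and 30502718 to 33365364 in p53-loss-only libraries. Trp53 lay between 189 and 392.5 in 11B3-deleted libraries, against 300.2 to 577 in p53-loss-only libraries, and whether these reads lie outside the deleted exons cannot be read from a gene total. Of the granulocyte genes the highest by mean was Mpo, the myeloperoxidase of neutrophil granules, at no less than 75329, while other genes of that list went down to 997, for Ltf in p53-loss-only replicate 3. Among monocyte genes Lyz2 was at no less than 103707, and Cx3cr1 was lowest, at 82.8 in 11B3-deleted replicate 2. The summed B cell list reached 48394 in 11B3-deleted replicate 3 and at most 2136 in any other library. The limma test on genotype called 2 of 14679 tested genes lower in 11B3-deleted libraries (0.0136%) and 0 higher, at a Benjamini-Hochberg adjusted p under 0.05, and edgeR on the recovered reads called 1 gene and DESeq2 58. At an unadjusted p under 0.05 limma gave 350 genes lower and 173 higher.

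Myh10 varied more between libraries of 1 genotype than between the genotypes. Its values were 7281, 73.1, 1396 and 631 in 11B3-deleted libraries 1 to 4, against 631, 1640.4, 43.8 and 63.8 in p53-loss-only libraries 1 to 4. One 11B3-deleted library stood far above the rest, a single 11B3-deleted library sat with the low pair of p53-loss-only libraries, and the groups overlapped over most of their range. The mean was 2345 ± 3335 in 11B3-deleted libraries and 595 ± 748 in p53-loss-only libraries (SD, n = 4 each). The log2 difference was 1.84 with a standard error of 1.54, given as a description. The highest library was 166-fold above the lowest; the median tested gene spanned 2.45-fold, and 0.967% of tested genes spanned more than Myh10.

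**Figure D1:**
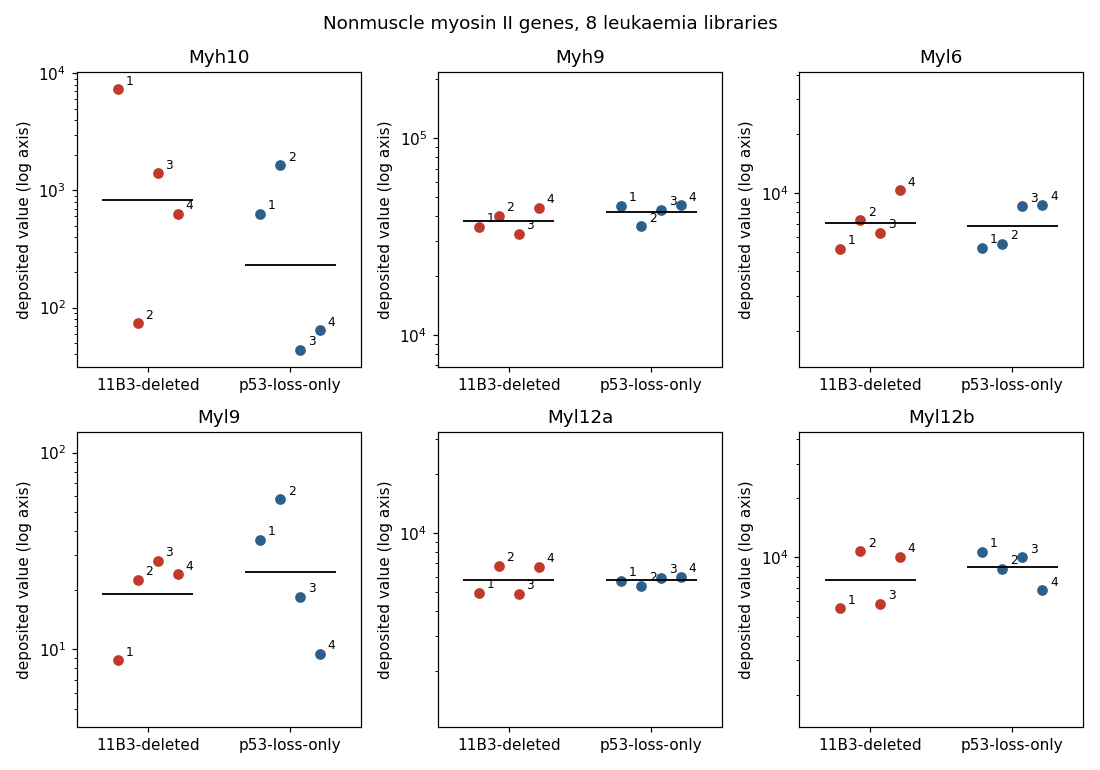
Deposited values (log axis) of the 6 nonmuscle myosin II genes in 11B3-deleted libraries (left, red) and p53-loss-only libraries (right, blue); numbers are replicates and bars are geometric means of 4 libraries. All panels span at least 1.5 powers of 10, and Myh10 runs from 43.8 to 7281 while Myh9 stays between 32643 and 45519.

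The heavy chain Myh9, in contrast, was high and even. It measured 35488, 40392.5, 32643 and 44291 in 11B3-deleted libraries 1 to 4, against 45247.5, 35687, 43282 and 45519 in p53-loss-only libraries 1 to 4. The groups overlapped, and the highest library was 1.39-fold above the lowest. Myh9 averaged 38204 ± 5168 in 11B3-deleted libraries and 42434 ± 4607 in p53-loss-only libraries (SD, n = 4 each). The log2 difference of -0.15 (SE 0.17, 95% interval -0.54 to 0.23) did not pass the limma test (adjusted p = 0.996).

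Per kilobase of exon, Myh9 was the main heavy chain in all 8 libraries. Myh10 made up 20.2%, 0.220%, 5.02% and 1.73% of the summed heavy chain level per kilobase (Myh9, Myh10 and Myh14) in 11B3-deleted libraries 1 to 4, against 1.69%, 5.37%, 0.122% and 0.170% in p53-loss-only libraries 1 to 4. The share was by far highest in 11B3-deleted replicate 1 and stayed at or below 5.37% elsewhere. Myh14, the heavy chain of myosin IIC, had deposited values of 1 to 6.38 and did not pass the filter. Lengths are exon unions from GENCODE, so a gene with long, rarely used exons is given too low a level per kilobase.

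**Figure D2:**
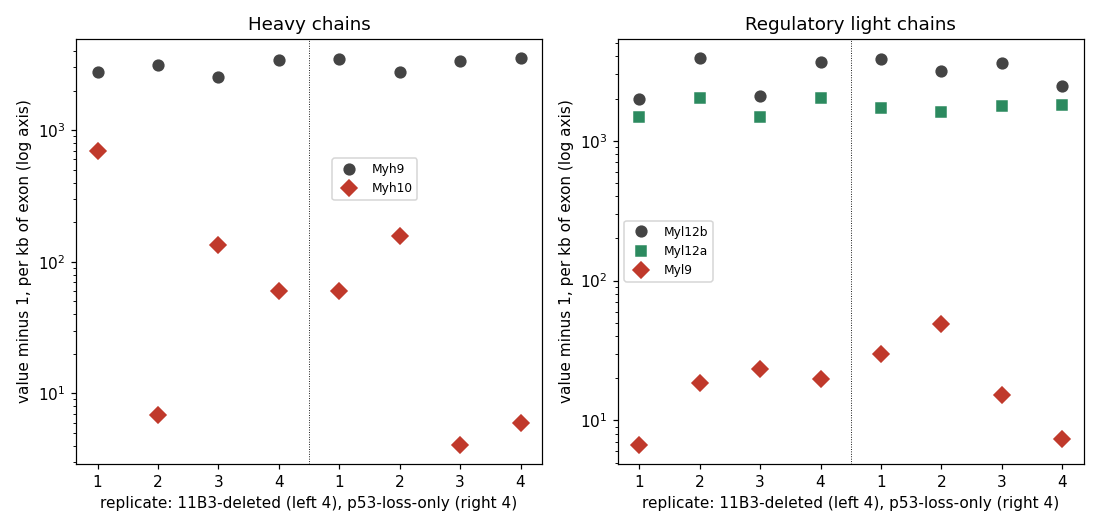
Deposited value minus 1, per kilobase of exon (log axis), of the heavy chains (left panel) and the regulatory light chains (right panel) in each library, 11B3-deleted left of the dotted line and p53-loss-only right of it. Myh9 lies above Myh10, and Myl12a and Myl12b lie above Myl9, in all 8 libraries.

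The essential light chain Myl6 measured 5203, 7258, 6289 and 10356 in 11B3-deleted libraries 1 to 4, against 5277, 5538, 8577 and 8720.4 in p53-loss-only libraries 1 to 4. The highest and the lowest library both belonged to the 11B3-deleted group, so the groups overlapped fully. Its log2 difference was 0.04 (SE 0.26, 95% interval -0.55 to 0.63, limma adjusted p = 0.996). The related gene Myl6b, which encodes another essential light chain, ran from 51.6 to 107.6 in 11B3-deleted libraries and from 64.3 to 349 in p53-loss-only libraries.

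Among the regulatory light chains, Myl12b was the highest per kilobase, with 57.2% to 65.6% of their sum in 11B3-deleted libraries and 57.7% to 69.0% in p53-loss-only libraries. Its deposited values were 5509, 10769, 5816 and 10084 in 11B3-deleted libraries 1 to 4, against 10697, 8779.7, 10011 and 6798 in p53-loss-only libraries 1 to 4. In the 11B3-deleted group a low pair and a high pair of libraries lay on either side of most p53-loss-only libraries. The log2 difference was -0.22 (SE 0.26, 95% interval -0.82 to 0.38, limma adjusted p = 0.996).

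Myl12a had the smallest ratio of the highest to the lowest of the 8 libraries among the 6 genes, 1.379-fold, against 1.394-fold for Myh9; within 11B3-deleted libraries the ratio was smaller for Myh9, 1.357-fold, than for Myl12a, 1.379-fold. It measured 4968, 6796, 4927 and 6729 in 11B3-deleted libraries 1 to 4, against 5730.0, 5410.1, 5912 and 6010.2 in p53-loss-only libraries 1 to 4. All p53-loss-only libraries fell inside the range of the 11B3-deleted ones, and the log2 difference was 0.01 (SE 0.16, 95% interval -0.35 to 0.36, limma adjusted p = 0.999). Its direction was negative after TMM rescaling, at -0.0024.

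Myl9, the regulatory chain typical of smooth muscle and other adherent cells, was near the lower end of what was tested. It measured 8.81, 22.5, 28.1 and 24.1 in 11B3-deleted libraries 1 to 4, against 35.96, 57.9, 18.5 and 9.52 in p53-loss-only libraries 1 to 4, which rest on 8 to 62 reads a library. The groups overlapped, and the log2 difference was -0.36 (SE 0.63, 95% interval -1.79 to 1.07, limma adjusted p = 0.996). Myl9 made up 0.193% to 0.651% of the regulatory light chain level per kilobase in 11B3-deleted libraries and 0.173% to 1.01% in p53-loss-only libraries. Of the 12 smooth muscle and stroma markers, Cnn1 and Des, the calponin and desmin of contractile cells, had deposited values of at most 9.72. Other contractile genes of the list were higher over the 8 libraries: Myh11 ran from 9.79 to 20.2, Acta2 from 54.3 to 439 and Tagln from 73.2 to 163. Highest by mean were Cxcl12, from 139 to 1890, and Pdgfrb, from 93.6 to 1525. The summed list ran from 1245 to 4111 in 11B3-deleted libraries and from 1021 to 3566 in p53-loss-only libraries. In bulk RNA, fewer cells of a type and less RNA per cell cannot be told apart.

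None of the 5 genes other than Myh10 passed the genotype test in either direction by limma, edgeR or DESeq2, and at an unadjusted p under 0.05 none did by any of the 3. All 6 genes had overlapping groups, where 2.15% of tested genes had groups that did not overlap. A missed threshold does not show that the genotypes are alike, and the 95% intervals of Myh9, Myl6, Myl12b and Myl9 each reach past 0.5 on the log2 scale in at least 1 direction.

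Myh10 was high in the libraries in which the erythroid genes Gata1 and Car1 were high. Gata1 measured 5044, 142, 812 and 718 in 11B3-deleted libraries 1 to 4, against 386, 1333, 9.77 and 29.8 in p53-loss-only libraries 1 to 4. The values of p53-loss-only replicates 3 and 4 are 8 and 27 reads, so the lowest Gata1 levels rest on few reads. Car1 measured 118944, 1555, 23898 and 5391 in 11B3-deleted libraries 1 to 4, against 6160.2, 9175, 87.6 and 162 in p53-loss-only libraries 1 to 4. The 3 libraries lowest in Myh10 were the 3 lowest in both erythroid genes and in the same order, and 11B3-deleted replicate 1 was highest in all of them. Ranks of Myh10 and Gata1 differed only by a swap between 11B3-deleted replicate 4 and p53-loss-only replicate 1, whose Myh10 values were both 631. Ranks of Myh10 and Car1 differed only by a swap between 11B3-deleted replicate 3 and p53-loss-only replicate 2.

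**Figure D3:**
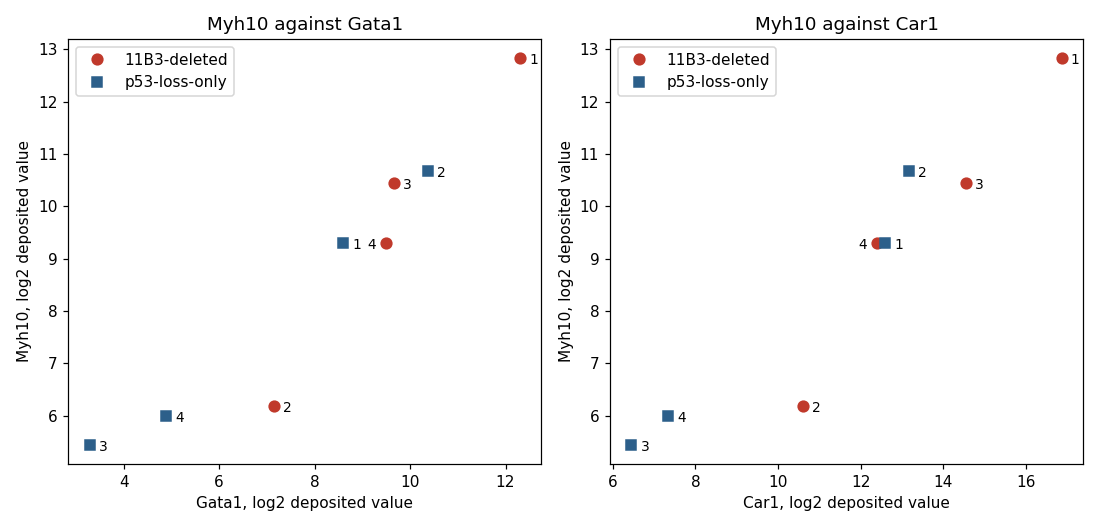
Myh10 against Gata1 (left) and Car1 (right), all as log2 deposited values; circles are 11B3-deleted libraries, squares are p53-loss-only libraries and numbers are replicates. Libraries of both genotypes fall along 1 rising band, with r = 0.95 in each panel over 8 libraries.

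Over the 8 libraries the log2 value of Myh10 had a Pearson r of 0.953 with that of Gata1 and of 0.952 with that of Car1, and the Spearman coefficient was 0.976 with each. The libraries farthest from the median of Gata1 and of Car1 were p53-loss-only replicates 3 and 4. Without them r was 0.969 with Gata1 and 0.943 with Car1 (n = 6). After each genotype's mean was taken out, r was 0.958 with Gata1 and 0.970 with Car1. These relations were looked at because earlier results of the same 8 libraries pointed to them, so they are given as a description with no p.

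The slope of Myh10 on the erythroid level, with genotype in the same model, was also read from a fit to all genes. For each unit of log2 Gata1, log2 Myh10 was higher by 0.92 (SE 0.10, 95% interval 0.68 to 1.16), and this passed the limma test (adjusted p = 0.00733). Since the relation had been noticed in these libraries, the slope tests of Myh10 place it among all genes and are not independent support for it. Of 14678 genes, 66 passed with a positive slope (0.45%) and 0 with a negative one, and Myh10 stood 36th by p. edgeR called 1 negative slope and DESeq2 23, and at an unadjusted p under 0.05 limma gave 571 positive and 254 negative slopes. The slope on log2 Car1 was 0.82 (SE 0.08, 95% interval 0.64 to 1.01, limma adjusted p = 0.00494), 17th among 64 genes called (0.436%), all positive. Both fits called 49 genes, which is 74.2% of the Gata1 list and 76.6% of the Car1 list.

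The slope was similar in size in every set of 7 libraries, but its call was close to the threshold. Without 11B3-deleted replicate 1, the library highest in Gata1, it was 0.86 on Gata1 (limma adjusted p = 0.0504) and 0.78 on Car1 (adjusted p = 0.0571). Without p53-loss-only replicate 2 the Gata1 slope was 1.01 with an adjusted p of 0.0545 by limma. Without 11B3-deleted replicate 3, which held the B cell genes, it was 0.92 with a limma adjusted p of 0.0115.

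No other member of the family passed the slope test. The slope on Gata1 was -0.03 (SE 0.04) for Myh9, -0.11 (SE 0.04) for Myl6, -0.04 (SE 0.03) for Myl12a, -0.04 (SE 0.06) for Myl12b and 0.13 (SE 0.13) for Myl9, with limma adjusted p-values from 0.816 to 0.961. On Car1 the limma adjusted p-values of these 5 genes ran from 0.5001 to 0.914. By each of limma, edgeR and DESeq2 0 of 5 were called on either erythroid gene, and Myl6 alone had an unadjusted p under 0.05, with a negative slope. The difference between the slope of Myh10 and theirs was not tested; the highest upper bound among the 5 on Gata1 was 0.43, for Myl9, against a lower bound of 0.68 for Myh10. Myh9, Myl6, Myl12a and Myl12b had negative correlations with both erythroid genes, r from -0.68 to -0.39, none past the adjusted threshold (exact permutation, adjusted p of 0.243 or more). Without p53-loss-only replicates 3 and 4 the r of Myl12b with Car1 was -0.909 (exact permutation p = 0.00278, unadjusted, n = 6) and that of Myl12a was -0.850 (exact permutation p = 0.025, unadjusted, n = 6). Myl9 had r of 0.198 with Gata1 and 0.156 with Car1, and without the same 2 libraries both turned negative, at -0.419 and -0.545 (n = 6).

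The genes whose pattern over the 8 libraries was most like that of Myh10 included red cell genes. The measure is Pearson's r of log2 values among 10176 tested genes with a mean value of at least 100, and no p is attached to it. Highest was Phlda2, an imprinted gene that restrains placental growth (r = 0.992), then Pklr, the pyruvate kinase of red cells and liver (0.987), Fads2, a fatty acid desaturase (0.986), and Klf1, a transcription factor of red cell precursors (0.985). They were followed by Ninl, a centrosomal ninein-like protein (0.985), Pkhd1l1 (0.982), Sphk1, a sphingosine kinase (0.981), and Zbtb46, a transcription factor best known from dendritic cells (0.979). Phlda2 was near the floor in the libraries low in Myh10. It measured 5.30 in 11B3-deleted replicate 2, 1 in p53-loss-only replicate 3 and 2.06 in p53-loss-only replicate 4. A value of 1 is 0 reads, so its r rests in part on few reads. Its highest value was 1316, in 11B3-deleted replicate 1. Klf1 measured 3755, 109, 961 and 512 in 11B3-deleted libraries 1 to 4, against 432, 1056, 33.9 and 34.0 in p53-loss-only libraries 1 to 4. Like Myh10, it was low in the same 3 libraries. The most opposite were Lclat1, an acyltransferase of mitochondrial lipids (-0.973), Ccdc28b, a cilium gene (-0.969), Alcam, an adhesion molecule (-0.960), and Trappc10, a vesicle trafficking subunit (-0.954). The first and the last of these spanned small ranges, 709.8 to 988 and 3899 to 5187 in 11B3-deleted libraries against 745 to 974 and 4328 to 5249.9 in p53-loss-only libraries.

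Read by marker list, the likeness to Myh10 was highest for the erythroid genes. Of 21 erythroid markers, all tested, 12 had r of at least 0.9 with Myh10, as had 153 of the 14678 tested genes besides Myh10. The median r of the list was 0.934, against 0.00349 over all tested genes. Gata1 and Car1, through which the relation was noticed, are among the 21 and among the 12. These figures are therefore not independent support for it. Besides Car1 and Gata1, the erythroid genes with high r included Car2, the second carbonic anhydrase, Epor, the erythropoietin receptor, Ermap and Rhag, surface proteins of red cells, and the spectrin gene Spna1, at 0.95 to 0.97. Genes of late red cells were less alike: r was 0.631 for the globin Hbb-b1, 0.717 for Hba-a1, 0.688 for Alas2, which starts haem synthesis, and 0.416 for Slc4a1, the band 3 anion exchanger. The summed erythroid list was 248736, 20796, 70195 and 38740.1 in 11B3-deleted libraries 1 to 4, against 37327, 67646, 9972 and 18108 in p53-loss-only libraries 1 to 4. In 11B3-deleted replicate 1 Car1 measured 118944 and Car2 43867, so these genes hold much of its sum. All 21 genes had more than 3 reads in each library.

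The other lists had lower medians, and their part in the level of Myh10 was not tested. Megakaryocyte markers, led by Itga2b and Clec1b, had a median r of 0.0909 with Myh10, the summed list ran from 508 to 2969 in 11B3-deleted libraries and from 888 to 2753 in p53-loss-only libraries, and the platelet collagen receptor Gp6 was at 1, which is 0 reads, in 3 libraries. The median r was 0.650 for 7 endothelial markers, whose summed level ran from 7312 to 12936 in 11B3-deleted libraries and from 4867 to 7344 in p53-loss-only libraries and whose most abundant gene by mean, Pecam1, had an r of -0.66; the other 6 had r from 0.479 for Emcn to 0.888 for Tek. The median r was 0.463 for 8 B cell, 0.372 for 8 stem and progenitor, 0.135 for 8 T and NK cell and 0.0296 for 10 tested smooth muscle and stroma markers. Granulocyte markers had a median r of 0.000666, from -0.829 for Ctsg to 0.520 for Ltf, with 5 of 10 below 0. Monocyte and macrophage markers had a median r of -0.430, from -0.781 for F13a1 to 0.259 for Ccr2, with 8 of 10 below 0. Of the skeletal muscle markers 2 were tested, with a median r of -0.438.

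**Figure D4:**
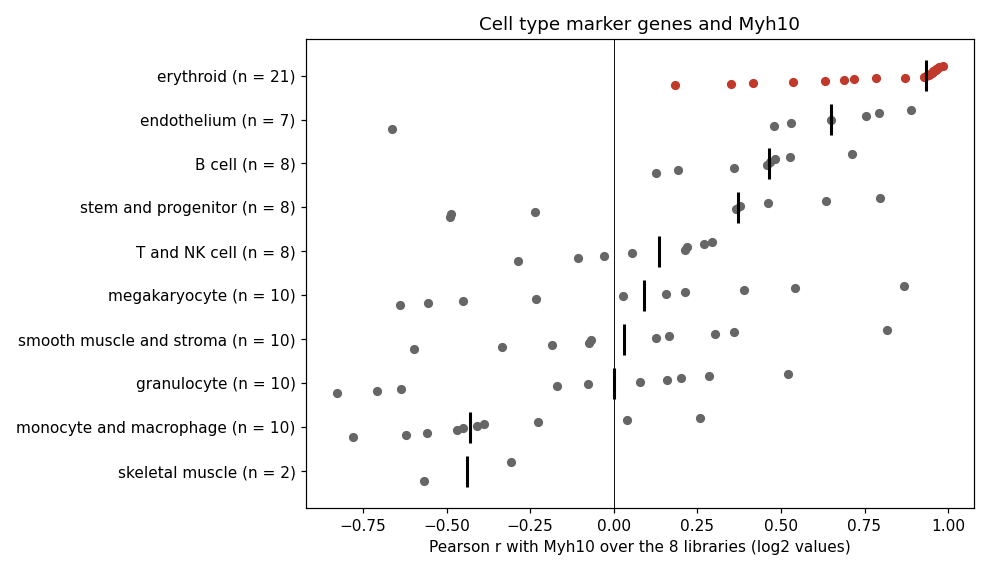
Pearson r with Myh10 over the 8 libraries for each tested marker gene, by cell type list (11B3-deleted and p53-loss-only libraries together); bars are medians. The erythroid list, which holds Gata1 and Car1, has the highest median, 0.934, and points of the monocyte and granulocyte lists reach below -0.75.

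Myh10 lies on chromosome 11 inside the lost interval, and its neighbours show what the rule used. Counted in gene order from Sco1 to Alox12, the interval had 91 rows, of which 73 were tested. Of the 72 besides Myh10, 71 had a lower mean log2 value in 11B3-deleted libraries, with a median log2 difference of -0.93 and quartiles of -1.22 and -0.78, against 0.01 over all tested genes. Bcl6b was the other gene above 0, at 0.13 (SE 0.65). By limma 0 of the 72 passed the adjusted threshold and 52 were lower at an unadjusted p under 0.05; edgeR called 0 and DESeq2 23 lower. Over all genes limma had 350 of 14679 lower at that unadjusted p and DESeq2 called 50 of 14485 lower. Nothing is read from these counts, since the rule used this contrast.

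The nearest tested gene after Myh10 was Ndel1, which helps dynein position the nucleus. It measured 877, 1122, 1022 and 931 in 11B3-deleted libraries 1 to 4, against 2263, 2081, 2251 and 1733 in p53-loss-only libraries 1 to 4. The groups did not overlap, and the log2 difference was -1.07 (SE 0.16). Next came Rpl26, a ribosomal protein, at -1.02 (SE 0.14), and Arhgef15, a guanine nucleotide exchange factor of endothelium, at -0.08 (SE 0.72). On the other side, Mfsd6l differed by -1.61 (SE 0.81), and Pik3r6 and Pik3r5, regulatory subunits of a PI3 kinase of leucocytes, by -1.19 (SE 0.29) and -0.82 (SE 0.20).

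With Gata1 added to the genotype model, the log2 difference of Myh10 was -0.81 (SE 0.58), and with Car1 added it was -1.23 (SE 0.53), where genotype alone gave 1.84 (SE 1.54). The median of the other 72 interval genes was -1.04 with Gata1 and -1.05 with Car1 in the model. Myh10 had the highest value of all 73 with genotype alone; with Gata1 in the model 12 interval genes lay above it and 60 below, and with Car1 49 above and 23 below. Gata1 itself differed by 2.86 (SE 1.59) and Car1 by 3.71 (SE 1.80) between the genotypes. These values describe the contrast the rule used and carry no test.

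**Figure D5:**
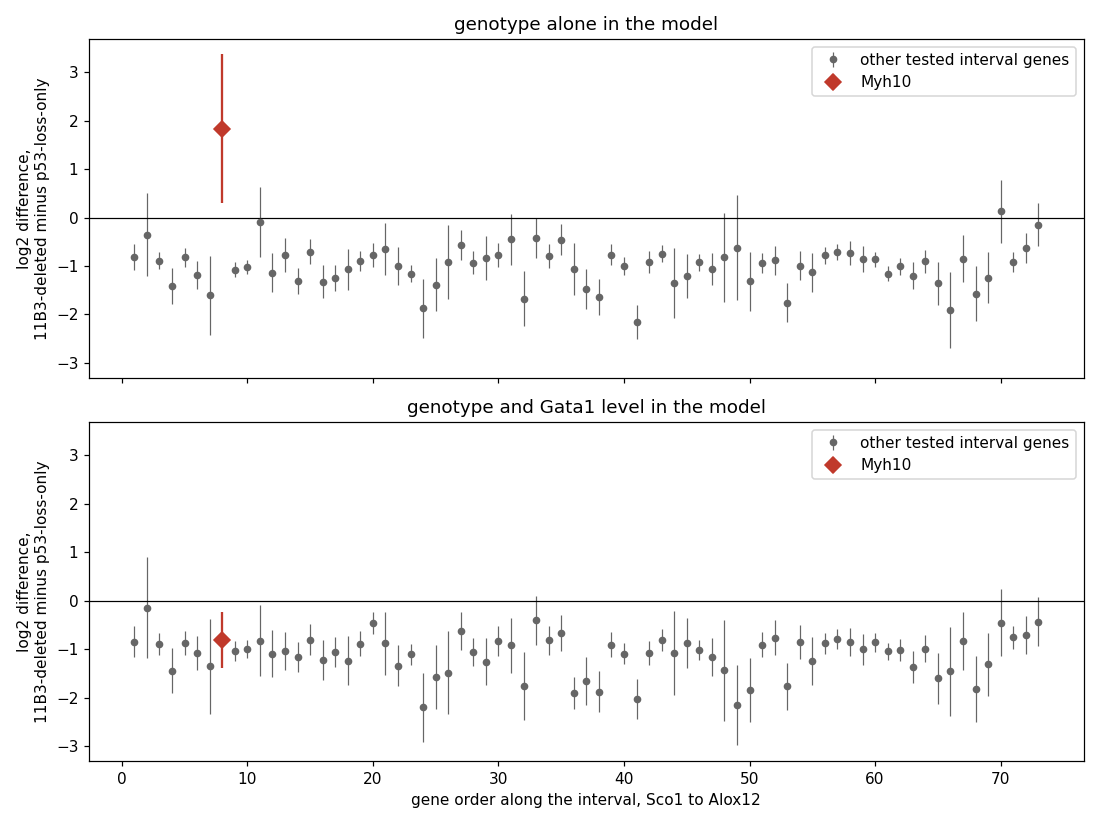
Log2 difference, 11B3-deleted minus p53-loss-only, of 73 tested interval genes in gene order, with standard errors; the upper panel has genotype alone in the model and the lower panel genotype and Gata1 level. Myh10 (red) is at 1.84 in the upper panel and at -0.81 in the lower one, within the range of the other genes (grey).

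Slopes on Gata1 were lower for each of the neighbours than for Myh10. Of the 72 other interval genes limma called 0 for a slope on Gata1, with 2 positive and 1 negative at an unadjusted p under 0.05; edgeR called 0 and DESeq2 2. The steepest slope among them was 0.54, of Fgf11, a growth factor relative (limma adjusted p = 0.412). Their r with Myh10 ran from -0.794 for Per1, a circadian clock gene, to 0.727 for Fgf11. Within p53-loss-only libraries, which keep both copies of the interval, the highest Myh10 value was 37.5-fold above the lowest, against a median of 1.69-fold for the others. Within 11B3-deleted libraries the ratio was 99.6-fold for Myh10 and 2.08-fold at the median, and no other interval gene had a wider ratio in either genotype.

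No gene of the wider myosin II pathway passed the genotype test. The list holds 87 genes besides the 6, of which 77 had a row and 74 were tested: kinases and phosphatase subunits of the light chain, upstream regulators, filament regulators, other myosins and cortical actin genes. By limma 0 of the 74 were called in either direction, 0 higher and 2 lower passed an unadjusted p under 0.05, and edgeR and DESeq2 called 0. Over all 14679 genes 173 higher and 350 lower passed that unadjusted p. The median log2 difference was -0.02, with 34 genes higher and 40 lower in mean, against 0.01 over all tested genes. Lowest by p was S100a4, a calcium-binding protein that takes myosin IIA filaments apart. It measured 4187, 8654, 7435 and 5064 in 11B3-deleted libraries 1 to 4, against 11886, 7705, 20702 and 13056 in p53-loss-only libraries 1 to 4. The lowest p53-loss-only library fell within the 11B3-deleted range, and the log2 difference was -1.05 (SE 0.33, limma adjusted p = 0.996). Rhob, a small GTPase, differed by -0.73 (SE 0.29) and the kinase Cdc42bpg by -0.51 (SE 0.26). The genes with the smallest p among those with higher means were the kinases Cdc42bpa at 1.94 (SE 1.10) and Mylk, the myosin light chain kinase of smooth muscle, at 0.88 (SE 0.52), and Kif23, a kinesin of the cleavage furrow, at 0.44 (SE 0.28). All 6 had a limma adjusted p of 0.996 and overlapping groups.

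On the Gata1 level, 2 of the 74 pathway genes were called by limma, both with a positive slope, where 0.45% of all genes were. Mylk3, known as the myosin light chain kinase of heart muscle, measured 609, 57.0, 96.96 and 110.2 in 11B3-deleted libraries 1 to 4, against 286, 461, 4.29 and 9.52 in p53-loss-only libraries 1 to 4. It shared with Myh10 the high value of 11B3-deleted replicate 1 and the low values of p53-loss-only replicates 3 and 4. The 4.29 of p53-loss-only replicate 3 is 3 reads, so the slope of Mylk3 rests in part on few reads. In 11B3-deleted replicate 3, where Myh10 ranked 3rd among the libraries, Mylk3 was at 96.96. Its slope was 0.92 (SE 0.10, limma adjusted p = 0.00715) on Gata1 and 0.79 (SE 0.11, limma adjusted p = 0.0266) on Car1. Cdc42bpa, a kinase acting downstream of Cdc42 on myosin light chains, had a slope of 0.63 (SE 0.10, limma adjusted p = 0.0489) on Gata1 and 0.50 (SE 0.12, limma adjusted p = 0.294) on Car1. On Gata1, edgeR called 1 of the 74 and DESeq2 3. On Car1 limma called 1, which is Mylk3, DESeq2 2 and edgeR 0, so its call on Car1 was lost with edgeR. Their r with Myh10 was 0.889 for Mylk3 and 0.844 for Cdc42bpa, and the median over the 74 was -0.115.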

How the data were processed

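Total RNA of 8 leukaemia libraries, 4 per genotype as the sample titles give it, was used. Per the submitters' processing notes, STAR, HTSeq, DESeq and the build mm9 were used, with no roles or versions. The deposited signal values are 1 plus whole reads divided by a size factor fixed within a library: whole reads were recovered for 100% of values within a tolerance of 0.02, and 3 reads correspond to 3.66 to 4.29. Depth limits Myl9 most; no molecular identifiers are named.

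Since the values are not counts, limma 3.58.1 (R 4.3.3) with a mean-variance trend was run on the log2 deposited value of 14679 genes with at least 10 in at least 4 libraries, with group alone or with group and centred log2 Gata1 or Car1; the deposited 1 is the pseudocount, so folds of low genes are understated. Tests were two-sided, with Benjamini-Hochberg adjustment over all genes at 0.05. Correlations of members other than Myh10 were tested over all 40320 pairings and adjusted over 12 relations. edgeR 4.0.16 and DESeq2 1.42.0 on recovered reads, TMM rescaling, a constant of 5, other filters, each library left out and a replicate block were alternatives, and the fits were tested on simulated data.

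The members and lists were chosen with earlier results of these data known. Genes named are the members, Gata1, Car1, 3 tested neighbours each side of Myh10, the 8 most and 4 least like it (without Gm and Rik names), 3 pathway genes per direction by smallest p, and defining and highest markers of each cell type list; Bcl6b, Fgf11, Per1, Mylk3, Myl6b, late erythroid genes and markers at the ends of a list's range were named after their values were seen. GENCODE M21 for GRCm38 (17888 of 18860 identifiers matched) gave symbols, gene order, lengths and transcripts; RefSeq gave promoters. All pairs of libraries differed beyond sampling noise.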

Additional observations from a re-analysis of the deposited data

Results flagged for a closer look

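Gata1 in 11B3-deleted replicate 1, at 5043.63, stood far above the other 3 libraries of its group, which lay between 142 and 812. It was 1 of 16 groups of 4 libraries checked for the members, Gata1 and Car1, and chance marks about 1 group in 20. The same library was highest in Myh10, Car1 and Klf1. The call of the Myh10 slope was lost without it, as given in the report.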

How the results depend on the processing

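The slope of Myh10 on Gata1 passed with edgeR, DESeq2, TMM rescaling, a constant of 5 and both other filters, and so did that on Car1. All of these fits use the libraries in which the relation was noticed, so they are not independent support for it. The ranges that follow are of the same kind. With each library left out the slope of Myh10 ran from 0.82 to 1.06 on Gata1 and from 0.74 to 0.88 on Car1. With TMM rescaling, a constant of 5, each library left out or genotype means taken out, the r of Myh10 ran from 0.933 to 0.986 with Gata1 and from 0.926 to 0.989 with Car1. Deviations from group means did not correlate positively between same-numbered libraries (-0.41 to -0.03), while differently numbered ones ran from -0.37 to 0.45. Deviations sum to 0 within each group, so a smaller effect shared by a number could be missed. Whether the numbers pair libraries cannot be read from these correlations. With the replicate block the slopes were 1.01 (limma adjusted p = 0.136) and 0.93 (limma adjusted p = 0.188). The block left 0 genes called in each of the 3 fits.

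The genotype difference of Myh10 ran from 0.79 to 3.002 with each library left out and was -0.81 with Gata1 and -1.23 with Car1 in the model. Genes called by genotype numbered 1 with edgeR, a constant of 5 or a mean of at least 50, 58 with DESeq2 and 0 to 1 with a library left out. Genes called for the slope on Gata1 numbered 264 with DESeq2 and 30 to 69 with a library left out, and on Car1 276 and 18 to 74. None of 222 other fits of the other 5 members was called; 10 changed sign. With a library left out the genotype difference ran from -0.14 to 0.19 for Myl6, from -0.82 to 0.048 for Myl9 and from -0.072 to 0.083 for Myl12a, which was -0.0024 after TMM rescaling, and the Gata1 slope of Myl9 ran from -0.0021 to 0.27. The pathway median stayed between -0.03 and 0.02. With transcript lengths, an alternative chosen after seeing the data, the Myh10 share in 11B3-deleted replicate 1 was 16.4%. The cause of these shifts was not tested.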
